A study of Mus musculus with 4 samples.

Results

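The aggrecan network and the matrilins are the genes for the hyaluronan-bound proteoglycan aggregate of cartilage and for the adaptor proteins that tie it to collagen fibrils. The set held 10 genes, chosen by symbol from the 55416 features of the gene list shared by all libraries, and all 10 were found: Acan, Hapln1, Vcan, Has2, Matn1, Matn2, Matn3, Matn4, Comp and Snorc. The values came from droplet single-cell RNA sequencing of cells of the femoral epiphysis, the cartilaginous end of the growing thigh bone, from wild-type (WT) mice. The animals were 7, 8, 10 or 12 days old, with 1 library per day and no treatment or allele other than wild type named in the labels. No source used here gives the number of animals behind each library, and the labels' digestion protocol names bowel tissue, so how far it describes these cells is not known. Each day was therefore a single sample, and differences between days are given as values without a test.

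Aggrecan, encoded by Acan, is the large proteoglycan whose sulfated side chains hold water and let cartilage resist compression. It does so as an aggregate: many aggrecan molecules bind a hyaluronan strand made by hyaluronan synthases such as Has2, and each bond is locked by link protein, the product of Hapln1. Versican, encoded by Vcan, is a related hyaluronan-binding proteoglycan that is best known from looser connective tissue and from embryonic and vessel-wall matrix. The matrilins (Matn1 to Matn4) and the cartilage oligomeric matrix protein (Comp, a thrombospondin) are oligomeric adaptors that bind aggrecan and collagen fibrils. Snorc encodes a small transmembrane proteoglycan of chondrocytes.

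In the RefSeq gene table, Hapln1 and Vcan were adjacent protein-coding genes on chromosome 13, and Acan lay next to Hapln3, another link protein gene, on chromosome 7. Upstream sequence was present for 6 of the 10 members (Acan, Hapln1, Vcan, Matn1, Matn3 and Matn4) in RefSeq's promoter table of build GRCm38.p6. The 250 bases before the start are shown for the 4 members that shared the chondrocyte pattern described below and for Vcan, the one with the opposite pattern. Capitals mark the RUNX core TGTGGT, which was searched on both strands (reverse ACCACA), as were the SOX cores ACAATG (reverse CATTGT) and ACAAAG (reverse CTTTGT).
Acan, chromosome 7, chr7:79052976-79053225, plus strand: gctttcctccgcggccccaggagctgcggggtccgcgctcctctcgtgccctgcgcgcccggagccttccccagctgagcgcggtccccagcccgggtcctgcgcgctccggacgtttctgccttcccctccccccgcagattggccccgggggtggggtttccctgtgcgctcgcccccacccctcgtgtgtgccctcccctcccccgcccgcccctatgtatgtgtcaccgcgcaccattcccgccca
Hapln1, chromosome 13, chr13:89540386-89540635, plus strand: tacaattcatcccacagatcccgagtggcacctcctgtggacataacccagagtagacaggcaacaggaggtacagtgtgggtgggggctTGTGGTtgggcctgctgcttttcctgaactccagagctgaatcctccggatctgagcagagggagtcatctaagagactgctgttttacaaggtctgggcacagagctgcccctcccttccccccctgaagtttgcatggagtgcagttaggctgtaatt
Matn1, chromosome 4, chr4:130944135-130944384, plus strand: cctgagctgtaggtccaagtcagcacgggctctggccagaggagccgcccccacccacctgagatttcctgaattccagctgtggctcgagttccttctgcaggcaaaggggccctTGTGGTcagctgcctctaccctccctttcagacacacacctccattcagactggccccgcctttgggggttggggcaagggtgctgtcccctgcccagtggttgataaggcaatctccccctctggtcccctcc
Matn3, chromosome 12, chr12:8947679-8947928, plus strand: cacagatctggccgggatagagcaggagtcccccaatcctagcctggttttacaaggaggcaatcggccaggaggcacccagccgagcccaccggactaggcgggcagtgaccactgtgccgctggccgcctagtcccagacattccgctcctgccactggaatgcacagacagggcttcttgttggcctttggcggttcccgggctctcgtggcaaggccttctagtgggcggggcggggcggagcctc
Vcan, chromosome 13, chr13:89742513-89742762, minus strand: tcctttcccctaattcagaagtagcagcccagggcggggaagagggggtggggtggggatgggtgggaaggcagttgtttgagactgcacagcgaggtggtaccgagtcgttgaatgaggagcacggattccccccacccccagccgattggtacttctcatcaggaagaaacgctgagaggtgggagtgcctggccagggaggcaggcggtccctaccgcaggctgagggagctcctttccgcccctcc
The RUNX core was found once before Hapln1, 160 bases before the start, and once before Matn1, 134 bases before the start. It occurred in 14% of the 32851 promoter windows of the same length. Neither SOX core occurred in any of the 5 windows, against 10.7% and 16.5% of all windows, and these letters say nothing about sites elsewhere. The windows differed in composition: 74.4% of the bases before Acan were G or C, with 26 CpG pairs, against 54.4% and 2 CpG pairs before Hapln1, while the median over all windows was 52.4% and 6 CpG pairs.

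The libraries held 44218720, 46534365, 132282322 and 169323978 unique molecular identifiers (UMIs, counts of single RNA molecules) on days 7, 8, 10 and 12, and 10028 to 16254 cells per library passed the filter. Clusters built without the 10 members were named from marker lists. The chondrocyte-like class, which held at least 17 of the 20 detectable chondrocyte markers in each of its 8 clusters, had 10374, 7604, 827 and 3695 cells on days 7, 8, 10 and 12, or 91.7%, 66.3%, 8.25% and 22.7% of the cells. Other clusters made up the class on the later days. On days 7 and 8 it consisted mostly of clusters 0, 5 and 1, whereas cluster 18 held 80.5% of it on day 10 and 59.8% on day 12, and cluster 22 held 9.79% and 26.0%. The libraries of days 10 and 12 shared 282 cell barcodes and every other pair 72 to 126. Within the class, the summed level of 12 blood markers, all of them detected on each day, was 317, 1488, 5040 and 2035 CPM (UMIs per 1000000 UMIs of the class) on days 7, 8, 10 and 12. A list of 14 stress-response genes summed to 14839, 16116, 8141 and 6405 CPM, and the median cell had 3080, 3204, 18937 and 10040 UMIs. These quantities moved with the days together with the values below, and their part in those values was not tested.

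Most of the network was highest in chondrocytes in every library. Levels are given as CPM, with exact Poisson intervals at 95% that cover counting error only. Chondrocytes had the highest level among the classes with at least 50 cells for 8, 7, 7 and 8 of the 10 members on days 7, 8, 10 and 12, or 30 of 40 cases. Over all genes with at least 20 UMIs the share was 20.1%, 10.4%, 4.62% and 5.47%, with 5, 10, 16 and 16 classes compared. Among the named classes, Acan, Hapln1, Matn1, Matn3, Matn4, Comp and Snorc were highest in chondrocytes in all 4 libraries. Vcan and Matn2 never were, and Has2 was on days 7 and 12 only.

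**Figure D1:**
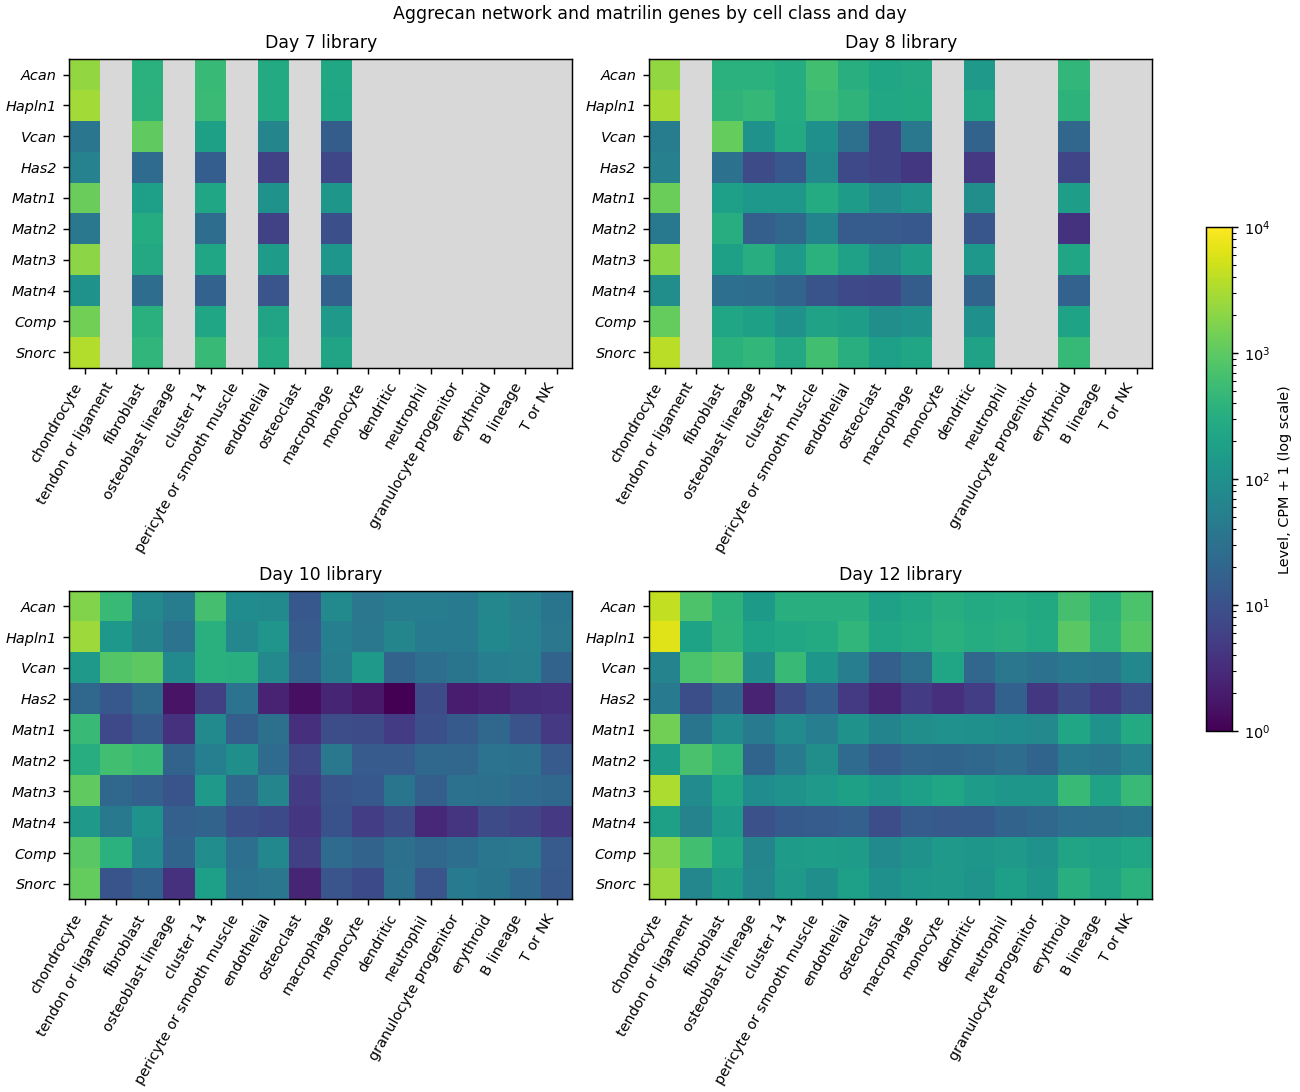
Levels of the 10 genes (rows) in the cell classes (columns) of each library, as CPM + 1 on a log color scale; grey marks classes with fewer than 50 cells. The chondrocyte column is the brightest for Acan, Hapln1, Matn1, Matn3, Matn4, Comp and Snorc on all 4 days, and the fibroblast column is the brightest for Vcan.

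The core of the aggregate, Acan and Hapln1, stood 2.64-fold to 7.36-fold above the named class with the next level. Acan was at 2263, 2220, 1753 and 4321 CPM in chondrocytes on days 7, 8, 10 and 12. Among the named classes, the next was at 509, 625, 664 and 756 CPM on those days: cluster 14, pericytes or smooth muscle cells, cluster 14 again, and tendon or ligament cells. Cluster 14 held 9 of 11 markers of the reticular stromal list, but it was led by Mmp13, Mmp9, Cxcl12 and Spp1 and is therefore called by its number. Col10a1 was also among its leading genes, and it held 7 of 12 markers of the osteoblast lineage list. Hapln1 was at 2821, 3018, 2562 and 6355 CPM in chondrocytes, and no other named class exceeded 952 CPM, the erythroid value of day 12. After every cell was thinned to 1000 UMIs, 88.3% of day-12 chondrocytes had a UMI of Acan (interval 87.2 to 89.3), against 25.1% of B-lineage cells of the same library (22.7 to 27.8). Without thinning these shares were 99.4% and 58.3%, at median depths of 10040 and 3676 UMIs. On day 10 the thinned shares were 63.5% of chondrocytes and 5.69% of B-lineage cells in that library.

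Among the adaptors, Matn1 and Matn3, the matrilins best known from cartilage, were likewise highest in chondrocytes on each day. Matn1 was at 1217, 1273, 522 and 1431 CPM in chondrocytes on days 7, 8, 10 and 12, and at most 288 CPM in any other named class. Matn3 was at 2012, 1961, 1061 and 3230 CPM in chondrocytes, and at most 509 CPM in any other named class. Comp stood at 1394, 1133, 948 and 1792 CPM in chondrocytes. Its next class on days 10 and 12 was tendon or ligament cells with 357 and 613 CPM, a tissue in which Comp is a known matrix component. Snorc had 3493, 3794, 1134 and 2490 CPM in chondrocytes and at most 605 CPM in another named class. The lead of chondrocytes was smaller for Matn4: on day 10 it was at 141 CPM (135 to 147) against 108 CPM in fibroblasts (102 to 114), and on day 12 at 188 CPM (184 to 192) against 162 CPM (153 to 172). Those intervals did not overlap, but they compare named classes only. Within the fibroblasts, cluster 28 by itself was above chondrocytes, with 261 and 517 CPM on days 10 and 12. Cluster 4, left unnamed with 8 of 10 tendon or ligament and 12 of 20 chondrocyte markers, had 152 CPM on day 8 (140 to 164). Chondrocytes had 93.9 CPM (90.45 to 97.5) on that day. On day 7 cluster 4 had 111 CPM (89.0 to 137), which overlapped the chondrocyte interval of 105.5 to 112.1.

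Vcan and Matn2 had the stromal pattern. Vcan was at 1050, 1119, 976 and 934 CPM in fibroblasts on days 7, 8, 10 and 12, followed by tendon or ligament cells with 844 and 731 CPM on days 10 and 12. Chondrocytes had 36.5, 48.1, 141 and 60.7 CPM. Cluster 14 had 189, 273, 350 and 488 CPM of Vcan, with intervals that did not overlap between any of the days. Matn2, the matrilin with the widest known tissue range, was at 294, 308, 502 and 409 CPM in fibroblasts, and at 625 and 721 CPM in tendon or ligament cells on days 10 and 12. Chondrocytes had 38.8, 41.0, 307 and 167 CPM of Matn2. Within the fibroblast-like class, cluster 28, led by Htra4, Col22a1 and Adamtsl1, carried the most Matn4, with 261 and 517 CPM on days 10 and 12, against 8.91 and 21.0 CPM in cluster 10, the other fibroblast-like cluster. Its Vcan level was the lower one, with 147 and 118 CPM on days 10 and 12 in cluster 28 against 1510 and 1259 CPM in cluster 10.

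Has2 had the lowest peak level of the members. Chondrocytes had 59.3, 54.8, 21.2 and 45.7 CPM on days 7, 8, 10 and 12. Pericytes or smooth muscle cells had 81.8 CPM on day 8 (interval 56.3 to 115, from 33 UMIs), then 32.3 CPM in the day-10 library (25.5 to 40.3) and 14.5 CPM in that of day 12 (8.10 to 23.9). The pericyte interval overlapped the chondrocyte interval of 52.1 to 57.5 on day 8. On day 10 it lay above the chondrocyte interval of 19.1 to 23.5 but overlapped that of fibroblasts (20.5 to 26.3). After thinning, 3.87% of chondrocytes on day 12 and 5.73% on day 7 had a UMI of Has2.

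The levels of the members across classes and libraries fell into the same groups. Over 47 sums of a class in a library, Pearson's r of log2(CPM + 1) was 0.959 between Acan and Hapln1, 0.958 between Acan and Comp, 0.98 between Hapln1 and Matn3, 0.976 between Matn1 and Snorc, and 0.771 between Matn2 and Vcan. These r values describe sums that share libraries and free RNA, and they carry no test. The neighbours Hapln1 and Vcan had an r of 0.0791. Among 11905 genes that reached 20 CPM, the 3 nearest were Hapln1, Comp and Chad to Acan, Matn3, Col2a1 and Col9a1 to Hapln1, and Col9a3, Col9a2 and Col9a1 to Snorc (highest r 0.993). To Matn1 the nearest were Col9a2, Snorc and Col2a1, to Matn3 they were Hapln1, Col2a1 and Col9a1, and to Comp they were Acan, Crispld1 and Fam180a. Vcan was nearest to Antxr1, Loxl1 and Fbn1 (highest r 0.887), Matn2 to Col3a1, Angptl2 and Col14a1 (0.939), Matn4 to Nrk, Fbln7 and Itm2a (0.887), and Has2 to Sox5, Rian and B830012L14Rik (0.895).

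Within cartilage, Acan, Hapln1, Matn1, Matn3, Comp and Snorc were higher in clusters with prehypertrophic markers than in the clusters with articular surface markers compared with them. Growth cartilage passes from resting to dividing, prehypertrophic and hypertrophic cells, which enlarge and express Col10a1, while articular surface cells face the joint. Cluster 22 held 7 of 7 prehypertrophic and 7 of 8 hypertrophic markers, Col10a1 among them. Cluster 18 held 7 of 9 articular surface and 5 of 8 resting zone markers, including Cilp, Gdf5 and Pthlh. It was mixed, since it also held 6 of 10 tendon or ligament markers, with Cilp2 among its leading genes, and 2 of 8 hypertrophic markers (Ibsp and Spp1). On day 12, cluster 22 was at least 1.5-fold above cluster 18 for 7 of the 10 members and at least 1.5-fold below it for 3, against 24.4% and 27.3% of all genes with at least 20 UMIs. Matn1 was at 2746 CPM in cluster 22 and 250 CPM in cluster 18, an 11-fold difference. Matn3 was at 5881 and 643 CPM (9.15-fold), and Hapln1 at 11943 and 1791 CPM (6.67-fold) in the same order. Acan was 3.34-fold, Snorc 2.87-fold, Has2 2.5-fold and Comp 1.91-fold higher in cluster 22.

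The members that ran the other way were those with a stromal or mixed pattern. Vcan was at 24.3 CPM in cluster 22 and 97.8 CPM in cluster 18 on day 12, Matn2 at 104 and 233 CPM, and Matn4 at 106 and 271 CPM. Fibroblast genes moved with this order: the lowest ratio of Col3a1, Dcn and Lum to their fibroblast level was 1.66% in cluster 22 and 14.9% in cluster 18. Vcan was at 1.57 times that percentage of its own fibroblast level in cluster 22 and at 0.705 of it in cluster 18, and Matn2 at 15.4 and 3.84 times. In the day-10 library, which held 81 cells of cluster 22 and 666 of cluster 18, the same 7 members were higher and Vcan and Matn2 lower, against 23.7% and 27.6% of all genes. The differences were larger there: Matn1 was at 2563 CPM in cluster 22 and 57.3 CPM in cluster 18 (44.7-fold), and Matn3 at 4796 and 201 CPM (23.8-fold). Matn4, with 115 CPM in cluster 22 and 149 CPM in cluster 18, was within 1.5-fold on day 10.

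**Figure D2:**
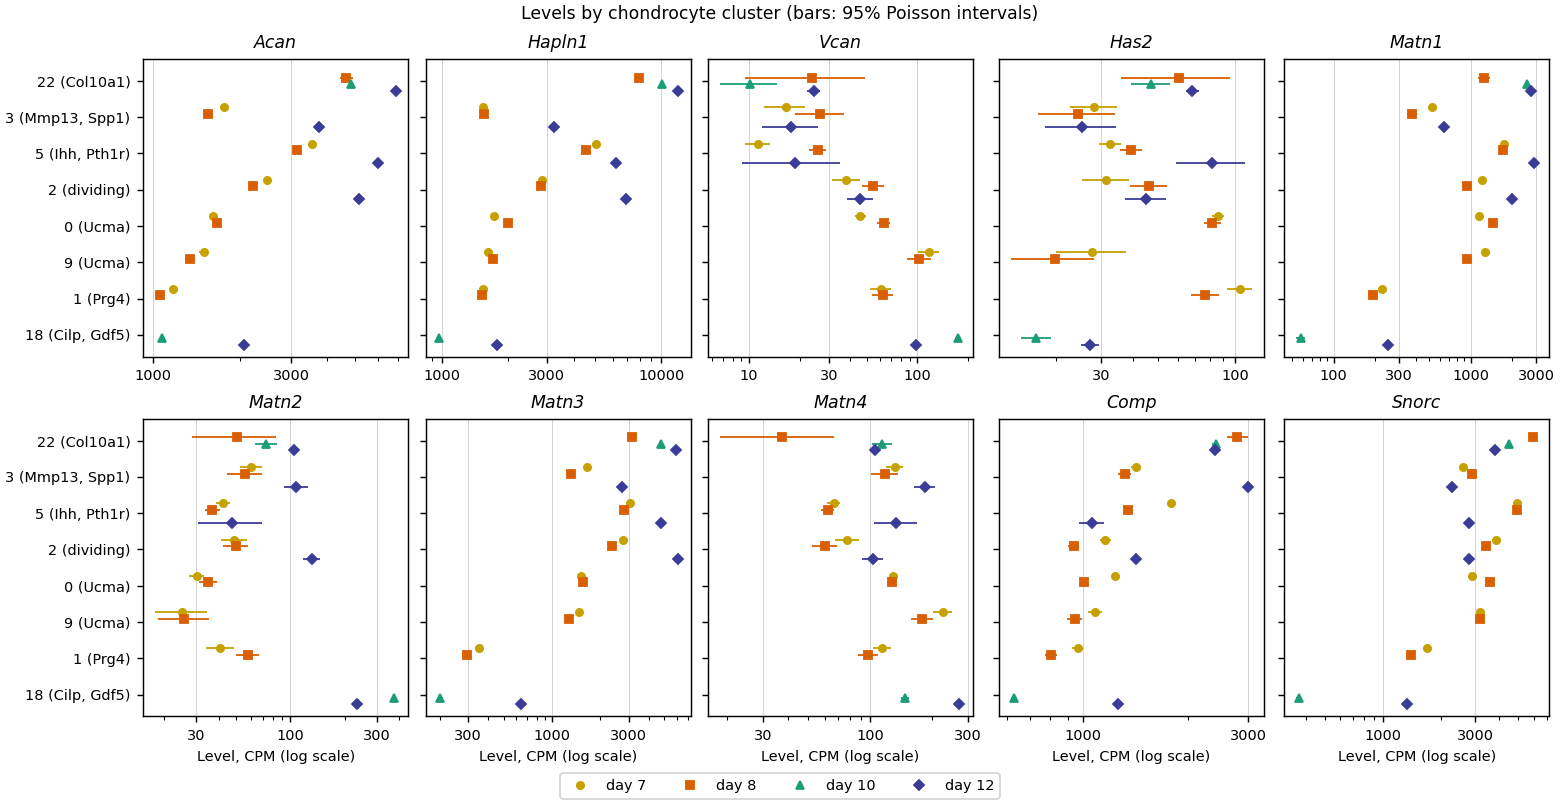
Level of each gene in CPM (log scale) by chondrocyte cluster, from the Col10a1 cluster at the top to the Cilp and Gdf5 cluster at the bottom, with symbols for the day of the library and bars for 95% Poisson intervals; clusters with fewer than 50 cells in a library are left out. Acan, Hapln1, Matn1, Matn3 and Snorc lie to the right in clusters 22 and 5 and to the left in clusters 1 and 18, and Vcan lies the other way.

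On days 7 and 8 the same order held for 6 members between other clusters. Cluster 5 held 3 of 7 prehypertrophic markers (Ihh, Pth1r and Wnt4). Cluster 1 held 5 of 9 surface markers, among them Prg4 (lubricin, made at the joint surface). Cluster 5 was at least 1.5-fold above cluster 1 for Acan, Hapln1, Matn1, Matn3, Comp and Snorc on both days, or 6 of 10 members, against 19.8% of all genes on day 7 and 17.2% on day 8. Matn1 was at 1748 CPM in cluster 5 and 226 CPM in cluster 1 on day 7, and at 1712 and 194 CPM on day 8. Matn3 was at 3065 and 350 CPM on day 7, and at 2794 and 294 CPM on day 8. After thinning to 1000 UMIs, 76.3% of cluster 5 cells and 21.3% of cluster 1 cells had a UMI of Matn1 on day 7. Cluster 3, which held 3 of 8 hypertrophic markers (Mmp13, Spp1 and Runx2), was not at the high end for Hapln1, Acan and Matn1 on that day. Its Hapln1 was at 1545 CPM, against 1538 CPM in cluster 1 and 5024 CPM in cluster 5. Its Acan was at 1753 CPM, against 1172 and 3554 CPM in clusters 1 and 5, and its Matn1 at 519 CPM, below the 1149 CPM of cluster 0. Its Comp, at 1416 CPM, came next after the 1789 CPM of cluster 5, and its Matn2, at 60.7 CPM, was the highest among these clusters.

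Has2, which makes the hyaluronan strand, did not keep 1 order. It was lower in cluster 5 than in cluster 1, with 32.7 against 104 CPM on day 7 and 39.3 against 76.5 CPM on day 8, yet higher in cluster 22 than in cluster 18 on the later days. Vcan and Matn4 were lower in cluster 5 than in cluster 1 on both days, by at least 1.5-fold, as 29.9% and 26.9% of all genes were, and so was Matn2 on day 8, with 36.8 against 58.0 CPM. The same fibroblast ratio was 0.995% in cluster 5 and 9.09% in cluster 1 on day 7, and 1.76% and 12.6% on day 8, and Vcan in cluster 1 was at 0.637 and 0.444 of the level at that ratio on days 7 and 8. Cluster 9 held 3 of 8 resting zone markers (Ucma, Grem1 and Apoe) and the surface marker Prg4. It had the highest Vcan and Matn4 among chondrocyte clusters on day 7, with 117 and 226 CPM. Averaged over the libraries in which a cluster had at least 50 cells, cluster 22 was the highest cluster for 6 members: Acan, Hapln1, Matn1, Matn3, Comp and Snorc. The libraries were not the same ones, since cluster 22 had values on days 8, 10 and 12 and cluster 5 on days 7, 8 and 12. For Matn1, cluster 22 was below cluster 5 in both libraries that held both, with 1251 against 1712 CPM on day 8 and 2746 against 2919 CPM on day 12. In the day-12 library by itself it was the highest for 3 of them (Acan, Hapln1 and Snorc), while Matn1 was highest in cluster 5, Matn3 in the dividing cluster 2 and Comp in cluster 3. Comp did not keep the order above in cluster 5 on day 12. It was at 1058 CPM there (973 to 1150), the lowest of 5 clusters and below the 1257 CPM of cluster 18 (1242 to 1272). Within single libraries, cluster 22 was the highest of the clusters for 19.5%, 46.9% and 15.3% of all genes on days 8, 10 and 12. The share of all genes for the average over libraries was not computed.

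From day 7 to day 12 the core genes stood higher in the chondrocyte class as a whole. At 1.5-fold, 6 of the 10 members were higher on day 12 than on day 7 (Acan, Hapln1, Vcan, Matn2, Matn3 and Matn4) and none was lower, against 28.6% higher and 29.5% lower among 18687 genes. The median log2 ratio was 0.71 over the members and 0.08 over all genes. The day-12 level was 1.91-fold the day-7 level for Acan, 2.25-fold for Hapln1, 1.60-fold for Matn3, 1.73-fold for Matn4 and 1.66-fold for Vcan. Matn2 had 167 CPM on day 12 and 38.8 CPM on day 7, a 4.29-fold difference. Snorc had 2490 CPM on day 12 and 3493 CPM on day 7, Has2 45.7 and 59.3 CPM, Comp 1792 and 1394 CPM, and Matn1 1431 and 1217 CPM, all within 1.5-fold.

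**Figure D3:**
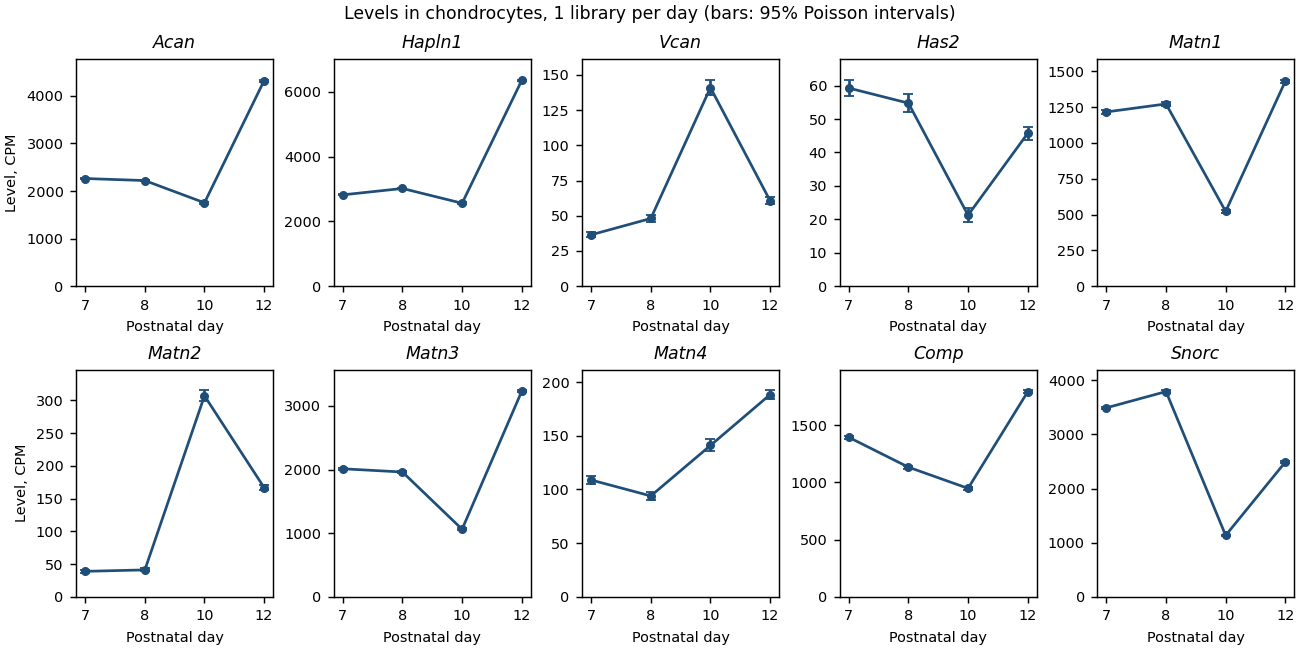
Level of each gene in chondrocytes in CPM by postnatal day, with 1 library per day and bars for 95% Poisson intervals, which are narrower than the symbols for most genes. Acan, Hapln1, Matn1, Matn3, Comp, Has2 and Snorc are lowest on day 10, where Vcan and Matn2 are highest.

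The order was not steady over the days. Between the neighbouring libraries of days 8 and 7, 0 members differed by 1.5-fold in either direction, against 11.2% of all genes higher and 5.33% lower. Day 10 had the lowest chondrocyte level of 7 members (Acan, Hapln1, Has2, Matn1, Matn3, Comp and Snorc), and the share of all genes lowest on day 10 was not computed. These 7 were at least 1.5-fold higher on day 12 than on day 10, and Vcan and Matn2 were lower, against 16% and 14.8% of all genes. With day 10 in place of day 12 as the later library, the ratio to day 7 was below 1 for Acan, Hapln1 and Matn3, at log2 ratios of -0.37, -0.14 and -0.92.

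The balance of clusters moved with these values. Without cluster 22, which held 26.0% of day-12 and 0.174% of day-7 chondrocytes, the log2 ratio (day 12 over day 7) was 0.18 for Acan, -0.17 for Hapln1 and -0.52 for Matn3, and 3 members were higher and 3 lower, against 30% and 30.3% of all genes. Without cluster 18, which held 59.8% and 0.337%, it was 1.5 for Acan, 1.90 for Hapln1 and 1.48 for Matn3, -0.45 for Vcan and 0.06 for Matn4, with 6 members higher and 0 lower, against 28.4% and 32.5%. These 6 were not the same set as with all clusters: Matn1 (1.05) and Comp (0.71) were among them, and Vcan and Matn4 were not. Matn2 kept a positive ratio both ways, at 2.44 without cluster 22 and 1.45 without cluster 18.

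Within single clusters that had over 100 cells on both days, Acan and Matn3 were higher on day 12 in all 3 of them. Acan had 5129 CPM (day 12) and 2480 CPM (day 7) in the dividing cluster 2, 3729 and 1753 CPM in cluster 3, which held the markers Mmp13, Spp1 and Runx2, and 6003 and 3554 CPM in cluster 5. Matn3 was at 6045 and 2772 CPM in cluster 2, at 2732 and 1655 CPM in cluster 3, and at 4747 and 3065 CPM in cluster 5. Hapln1 was higher in clusters 2 and 3 (log2 ratios of 1.26 and 1.07) and within 1.5-fold in cluster 5 (0.30). The median log2 ratio over all genes was also positive, at 0.28, 0.33 and 0.49 in clusters 2, 3 and 5. Over the members it was 0.62, 0.60 and 0.69. In cluster 5, Hapln1 was below the median of all genes, and Matn3 was at 0.63. In all, 5, 5 and 6 members were higher in clusters 2, 3 and 5, against 34.4%, 36.5% and 46.7% of all genes, and 0, 0 and 2 were lower, against 17.5%, 15.4% and 15.6%. The 2 lower ones in cluster 5 were Snorc, with 2783 CPM (day 12) and 4955 CPM (day 7), and Comp, with 1058 and 1789 CPM.

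**Figure D4:**
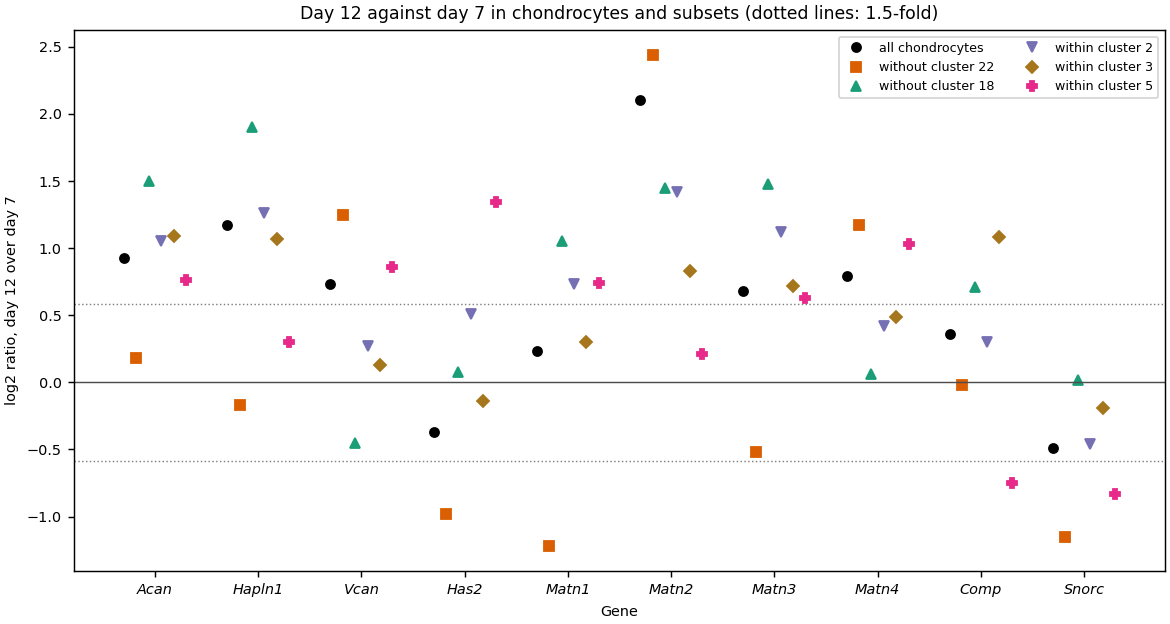
Log2 ratio of the day-12 to the day-7 level for each gene in all chondrocytes, without cluster 22 or cluster 18, and within clusters 2, 3 and 5; dotted lines mark 1.5-fold. Acan, Matn2 and Matn4 lie above 0 in every subset, while Hapln1, Matn1 and Matn3 lie below 0 without cluster 22.

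Between the libraries of days 12 and 10, which had the same leading clusters, cluster 18 had 8 members higher on day 12 and 2 lower, against 12.9% and 10.7% of all genes. Matn1 had 250 CPM (day 12) against 57.3 CPM (day 10), Snorc 1330 against 367 CPM, and Matn3 643 against 201 CPM, while Vcan was at 97.8 against 175 CPM and Matn2 at 233 against 376 CPM. In cluster 22, 1 member, Vcan, was higher (24.3 against 10.1 CPM) and 0 were lower, against 16.3% and 11.2%. Free cartilage RNA, read in blood cells below, was also higher in the day-12 library than in that of day 10, and its part in these values was not tested.

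The members were also compared between days outside cartilage. In cluster 14, 2 members (Vcan and Matn2) passed 1.5-fold upward on day 12 and 7 downward, against 36.7% and 18.6% of all genes, with Acan at 336 against 509 CPM and Hapln1 at 250 against 528 CPM. Free cartilage RNA, read as described below, was at 6.76% of the chondrocyte level in this cluster on day 12 and 14.3% on day 7. Acan was at 1.15 and 1.57 times that free level, and Hapln1 at 0.581 and 1.30 times, on days 12 and 7. Of the 7, Matn4 (12.3 against 17.0 CPM, with 8 UMIs on day 7) passed only through the UMI added to each sum, and Has2 rested on 7 UMIs on day 7. The intervals of both overlapped between the days. Upward, Matn2 rested on 12 UMIs on day 7, and its intervals of 39.3 to 48.6 CPM (day 12) and 13.2 to 44.6 CPM (day 7) overlapped too. In fibroblasts 1 was higher, Matn4 with 162 against 26.4 CPM, and 2 were lower, Matn1 and Snorc, against 30% and 19.3%. The mix of clusters moved with Matn4: cluster 28 held 131 of 669 fibroblasts on day 12 and 8 of 130 on day 7, and within cluster 10 Matn4 was at 21.0 against 16.4 CPM. In endothelial cells Matn2 passed upward (23.9 against 5.10 CPM, from 2 UMIs on day 7) and Has2 and Snorc downward, against 32.4% and 19%. Has2, at 3.76 CPM (2.43 to 5.55) against 5.10 CPM (0.617 to 18.4, also 2 UMIs), passed only through the UMI added to each sum, and its intervals overlapped. In tendon or ligament cells, 6 members were higher on day 12 than on day 10 and 0 lower, against 7.38% and 12.7%. Comp was among them, with 613 against 357 CPM, and the others were Hapln1, Matn1, Matn3, Matn4 and Snorc. Hapln1, Matn1, Matn3 and Snorc were below the free cartilage level in these cells on both days, with Matn1 at 0.341 and 0.165 of it on days 12 and 10. That level is scaled on cartilage collagen genes and was at 7.71% of the chondrocyte level here on day 10, against 0.553% to 3.60% in blood classes. Collagen RNA made by the tendon or ligament cells themselves would raise it. Whether the count includes members that are free RNA was therefore not decided.

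Fibroblast genes were also read in the chondrocyte class, beside Vcan and Matn2. Col3a1, Dcn and Lum, collagen and proteoglycan genes of fibroblasts, were all detected in the class, and the lowest of their 3 ratios to fibroblasts was 5.44%, 6.35%, 21.9% and 8.08% on days 7, 8, 10 and 12. That percentage of the fibroblast level of Vcan came to 57.1, 71.0, 214 and 75.5 CPM, and the chondrocyte class had 0.639, 0.677, 0.659 and 0.804 of it. Vcan in chondrocytes was below that level on each day. For Matn2 the same percentage came to 16, 19.5, 110 and 33.1 CPM, and the measured level was 2.43, 2.10, 2.79 and 5.04 times as high.

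Blood cells served to judge free RNA, the molecules from broken cells that enter every droplet. The 6 cartilage collagen genes Col2a1, Col9a1, Col9a2, Col9a3, Col11a1 and Col11a2 were present in blood classes at 9.27% of their chondrocyte level on day 7 (1 class), 8.28% to 14.1% on day 8, 0.553% to 3.60% on day 10 and 4.52% to 14.4% on day 12. Free cartilage RNA was therefore lower in the day-10 library than in the other 3. A member at that same percentage of its own chondrocyte level was read as free RNA, and one at least 2-fold above it, with a Poisson interval above it and over 3 UMIs, as above free RNA. Over all genes, 76.3% of the cases of a gene in a blood class of a library were above free RNA (38.2% to 95.8% by class), genes of the blood cells themselves included.

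Hapln1, Matn1, Matn3, Comp and Snorc were above free cartilage RNA in none of 23 blood classes by library, and their median ratio to it was 0.861, 0.888, 0.820, 0.993 and 0.718. Acan was above it in 1 of 23, day-10 macrophages, at 78.0 CPM and 2.04 times the free level. Vcan was above it in 22 of 23, Matn2 in 12, Has2 in 5 and Matn4 in 2. When free fibroblast RNA, scaled on Col3a1, Dcn and Lum at 1.35% to 5.47% of the fibroblast level, was added to the free cartilage RNA, a step chosen after seeing these values, 4 cases were left in place of 42 of 230. With that addition the median ratio over the 23 was 1.01 for Vcan, 0.989 for Matn2 and 0.893 for Matn4, and 72% of all gene cases were above it (35.4% to 88.4% by class). Chondrocytes themselves had Dcn at 18.1% to 40.5% and Lum at 28.5% to 37.5% of the fibroblast level, by day. Their share was not taken out of the fibroblast scaling, so part of the free cartilage RNA was counted in both terms. This raises the expected level and lowers these ratios and the count of cases, by an amount that was not measured.

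The cases left were Vcan in monocytes and Has2 in neutrophils. Monocytes had 143 CPM of Vcan in the day-10 library (interval 128 to 160) and 234 CPM in that of day 12 (221 to 247), which was 6.46 and 11.4 times the level of free cartilage and fibroblast RNA. Day-12 monocytes with a UMI of Vcan made up 12.9% of the class after thinning, against 3.28% of B-lineage cells, and 31.2% against 9.77% without thinning at median depths of 3899 and 3676 UMIs. Neutrophils had 7.45 CPM of Has2 in the day-10 library (4.77 to 11.1, from 24 UMIs) and 16.3 CPM in that of day 12 (10.8 to 23.5, from 28 UMIs), 7.38 and 3.17 times the free level. After thinning, 0.831% of neutrophils on day 10 and 1.61% on day 12 had a UMI of Has2, with intervals of 0.172 to 2.41 and 0.648 to 3.28. In B-lineage cells these shares were 0.228% and 0.259%, with intervals that overlapped those of neutrophils.

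**Figure D5:**
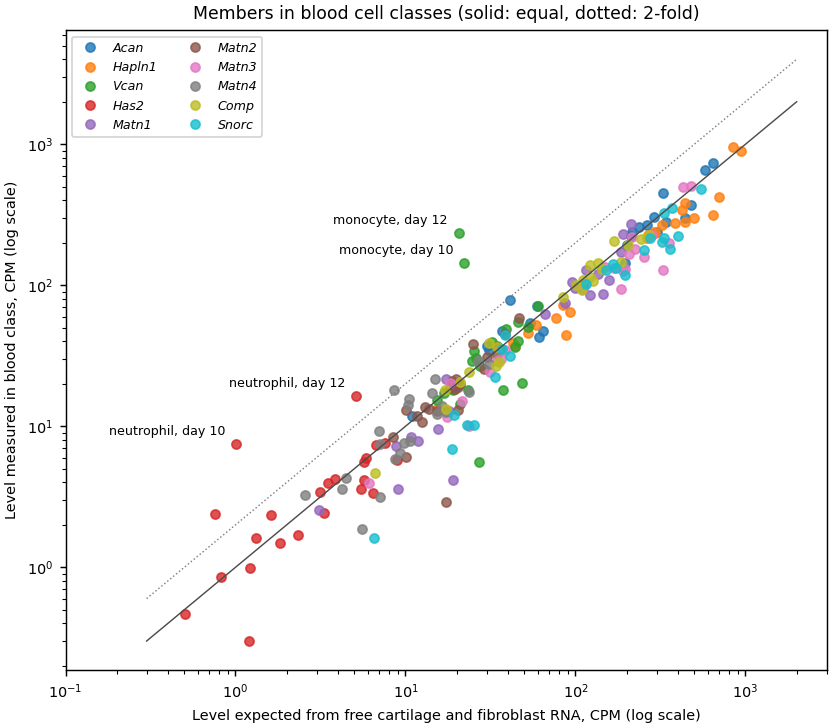
Measured level of each gene in each of 23 blood classes by library against the level expected from free cartilage and fibroblast RNA, both in CPM on log scales; a measured 0 is drawn at 0.3, the solid line marks equality and the dotted line 2-fold. Most points follow the solid line, and the labelled points are Vcan in monocytes and Has2 in neutrophils.

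The same reading was made in the stromal classes, but cartilage collagen RNA made by these cells themselves would raise the free level there. On day 10 the free level was at 2.74% to 15.3% of the chondrocyte level in stromal classes, against 0.553% to 3.60% in blood classes. A member at or below the free level in a stromal class is therefore not shown to be free RNA. Tendon or ligament cells had 508 CPM of Acan on day 10 and 756 CPM on day 12, or 3.76 and 2.43 times the free cartilage level, and 2.66 and 1.47 times with fibroblast RNA added. Comp in these cells was 4.89 and 4.75 times the free cartilage level, and 2.63 and 2.35 times with fibroblast RNA added. Cluster 14 on day 10 had 664 CPM of Acan, 3.38 times the free cartilage level, and 1.15 to 1.57 times on the other days. With fibroblast RNA added, Vcan in cluster 14 was 2.94, 3.48, 3.63 and 6.56 times the free level on days 7, 8, 10 and 12, and Has2 in pericytes or smooth muscle cells was 5.00, 3.62 and 2.26 times it on days 8, 10 and 12. Hapln1, Matn1, Matn3 and Snorc were above free cartilage RNA in none of the 20 stromal classes by library. The share over all genes was not computed for stromal classes, so this count has no reference beside it.

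The other genes of the network were read in chondrocytes from a list of 46: further link proteins and hyaluronan synthases, hyaluronan receptors, hyaluronan-degrading and aggrecan-cleaving enzymes, thrombospondins, cartilage collagens and the transcription factors of cartilage. Of 44 with at least 20 UMIs, 18 passed 1.5-fold upward and 5 downward from day 7 to day 12, against 28.6% and 29.5% of all genes, with a median log2 ratio of 0.34. The largest differences were in Cilp2 and Thbs4, at 346 and 204 CPM on day 12 against 19.1 and 12.9 CPM on day 7. Cilp2 and Thbs4 stand in the tendon or ligament list, and without cluster 18 their log2 ratios were 0.42 and 1.90 in place of 4.18 and 3.98. Thbs2 had 311 CPM on day 12 against 62.8 CPM on day 7, and Cilp, a protein of the cartilage intermediate layer, 105 against 18.7 CPM. Without cluster 18 their log2 ratios were -0.48 and -0.74.

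Adamts5, the main aggrecan-cleaving protease of mouse cartilage, had 16 CPM on day 12 against 5.95 CPM on day 7. The protease gene Htra1 had 175 and 79.8 CPM, and Cemip, needed for hyaluronan breakdown, had 77.0 and 36.8 CPM. Runx2, the factor of hypertrophy, had a log2 ratio of 1.14, which was 0.40 without cluster 22. Thbs1, a thrombospondin like Comp, had 1491 CPM (day 12) and 698 CPM (day 7), and Lyve1, a hyaluronan receptor of vessels and macrophages, had 2.73 CPM on day 12 and 0.783 CPM on day 7. The lower genes of the list included Ucma, a resting-zone matrix protein, with 1032 CPM (day 12) and 3541 CPM (day 7), and Has1, with 1.47 and 9.47 CPM. The link protein gene next to Acan, Hapln3, had 7.97 CPM on day 12 and 9.76 CPM on day 7, within 1.5-fold, whereas Acan was higher.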

How the data were processed

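The deposited values were whole-number counts of unique molecular identifiers per gene and cell barcode, not normalized, in 1 matrix per library. The reads were processed against GRCm39, per the submitters' processing notes; no source used here names the counting program or the barcode calling rule. Cells were dropped below 500 genes or 1000 UMIs, or where over 15% of UMIs were mitochondrial. Clustering used 2000 variable genes without the members, 40 principal components, 20 neighbours and Leiden resolution 1, and gave 37 clusters, 16 named classes and 8 unnamed clusters. No doublet caller was run; an alternative left out the 5% of cells with the most UMIs. Counts were summed per class and library, with ratios taken after adding 1 UMI and differences counted from 1.5-fold in genes with at least 20 UMIs. Intervals were exact Poisson for levels and Clopper-Pearson for shares of cells thinned to 1000 UMIs. With 1 library per day no test between days was made. Named genes were the members, their 3 nearest genes by correlation, and at most 12 list genes past 1.5-fold with at least 100 UMIs. The members and lists were chosen with earlier results of these data known. The 1.5-fold calls and the coverage of the Poisson intervals were checked on simulated counts, and the other steps were not. Python 3.11.15, scanpy 1.11.5, leidenalg 0.10.2, scipy 1.17.1, numpy 2.4.6 and pandas 2.3.3 were used.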

Additional observations from a re-analysis of the deposited data

Results flagged for a closer look

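Several members differed in direction between cell groups under the same contrast of days. With 1 library per day, none of these differences was tested, and no cause was tested either. Between days 12 and 10, the log2 ratio of Vcan was 1.21 in cluster 22 and -0.84 in cluster 18, a difference of 2.05. Between days 12 and 7, the log2 ratios in chondrocytes and in cluster 14 were 0.93 and -0.60 for Acan (difference 1.53), 1.17 and -1.09 for Hapln1 (2.26), 0.68 and -1.11 for Matn3 (1.79), and 0.79 and -0.62 for Matn4 (1.41). In cluster 14 these members were near or below the level of free cartilage and fibroblast RNA, at 1.05 and 1.48 times it for Acan and 0.543 and 1.24 times for Hapln1 on days 12 and 7, and free cartilage RNA there was at 6.76% and 14.3% of the chondrocyte level. Matn4 had 2.51 in fibroblasts and -0.62 in cluster 14, a difference of 3.13, from 12 UMIs in day-7 fibroblasts and 8 UMIs in day-7 cluster 14. Cluster 28 held 131 of 669 fibroblasts on day 12 and 8 of 130 on day 7, and within cluster 10 Matn4 was at 21.0 and 16.4 CPM. Comp had 1.08 in cluster 3 and -0.75 in cluster 5, a difference of 1.83.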

How the results depend on the processing

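Shares over all genes stand in parentheses. Against 6 members higher (28.6%) and 0 lower (29.5%) on day 12 than on day 7, leaving out the Col10a1 cluster gave 3 higher (30%) and 3 lower (30.3%), day 10 as the later library gave 2 (25.3%) and 4 (31.3%), and a 2-fold threshold gave 2 (14%) and 0 (21.7%). Counts were 5 higher and 1 lower with totals without mitochondrial, ribosomal and hemoglobin genes (22.5% and 33.1%), with the mean share per cell (29% and 29.3%) and with cells thinned to 1000 UMIs (32.1% and 21.4%), where Matn3 was at log2 ratios of 0.53, 0.57 and 0.54. They were 6 and 1 without the 5% of cells with the most UMIs (28.4% and 29.2%) and with day 8 as the baseline (25.9% and 31.3%), and 5 and 0 with cells gated one by one (31.4% and 28%). Vcan was at 0.34 with the day-8 baseline and 0.25 with cells gated one by one. Without the Col10a1 cluster, log2 ratios turned negative for Hapln1 (-0.17), Matn3 (-0.52), Matn1 (-1.22) and Comp (-0.02). With day 10 they did so for Acan (-0.37), Hapln1 (-0.14), Matn3 (-0.92), Matn1 (-1.22) and Comp (-0.56). Without cluster 18, an alternative chosen after seeing the data, Vcan turned negative (-0.45) and Has2 (0.08) and Snorc (0.02) positive. The causes were not tested. Over 18 alternatives Matn2 ranged from 1.45 to 2.98 and Matn4 from 0.06 to 1.17. The count of 42 cases above free RNA was 4 with fibroblast RNA added, a step that counts part of the free cartilage RNA in both terms. The 6 members highest in cluster 22 were 3 in the day-12 library by itself. Levels near 1 UMI, such as Has2 in blood cells, are limited by depth. No paired analysis was possible because each day had 1 library.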

Other observations

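Some clusters that took no class name held cartilage RNA together with blood genes on day 12. Cluster 34, with 203 cells on that day and led by the neutrophil genes Retnlg and Stfa2, had 17 of 20 chondrocyte markers and 10 of 12 blood markers, with 1943 CPM of Acan and 2182 CPM of Hapln1. Cluster 27, with 715 cells on day 12 and led by Col10a1, Spp1 and Mmp13 beside hemoglobin genes, had 14 and 11 of these markers, with 1453 CPM of Acan and 707 CPM of Matn1. Both were kept out of every class, and whether they are doublets was not tested. Cluster 12, led by Aspn and Postn, had 853 CPM of Acan and 435 CPM of Vcan on day 12.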
